A study of Mus musculus with 32 samples.

Results

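The genes described here are 10 transcription factors that specify the epidermal lineage or drive keratinocyte differentiation, namely Trp63, Tfap2a, Klf5, Klf4, Gata3, Zfp750, Ovol1, Grhl1, Grhl3 and Hopx. They were chosen by name and role, and all 10 were found among the 55401 genes of the deposited count tables and among the 15546 that passed the filter on low counts. Each of 32 mice gave 1 epidermal RNA-seq library from dorsal skin. The mice, of a mixed SKH-1/SV129/BL6/J background and 10 to 14 weeks old, fell into 8 groups of 4 by sex, by genotype (WT, or Ppard-/- littermates lacking PPARβ/δ, called KO below) and by treatment. UV mice received a single sub-erythematous dose of 120 mJ/cm2 on the back and were sampled 24 h later, and Control mice were handled in the same way without irradiation. The deleted part of Ppard and the cells in which it is lost are not given in the sources used here.

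The stratified epidermis is built by basal keratinocytes that divide, leave the basement membrane and differentiate through spinous and granular layers into the cornified barrier. p63, encoded by Trp63, is required for the lineage and keeps basal cells in the stratified programme together with AP-2 and KLF5, whereas KLF4, GATA3, ZNF750 (encoded by Zfp750), OVOL1 and the grainyhead-like proteins GRHL1 and GRHL3 act mainly as cells differentiate. HOPX is a small homeodomain protein that does not bind DNA itself and is expressed in differentiating keratinocytes.

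Levels are given as cpm, the reads on a gene scaled to the total on all genes and, between mice, by TMM factors, and UV responses as log2 fold changes with their standard errors. A gene was called at an adjusted P value under 0.05 in edgeR's quasi-likelihood test over all 15546 genes. Libraries held between 22919428 and 40653581 reads on genes, and the labelled sex matched in 32 of 32 mice. Cdkn1a, which encodes the cell cycle inhibitor p21, averaged 350 cpm in WT Control and 1651 cpm in WT UV mice, and 343 and 1722 cpm in the corresponding KO mice. Ppard itself averaged 95.5 ± 6.08 cpm (SD, n = 8) in WT Control and 79.8 ± 6.87 cpm in KO Control mice, so reads on Ppard remained in the KO mice. As the deleted part is not known here, a count over the whole gene does not check the KO label. After UV, Ppard averaged 282 ± 24.7 cpm in WT and 210 ± 25.7 cpm in KO mice, a genotype difference of -0.42 on the log2 scale (edgeR adjusted P = 0.00114). Of the labelled tissue, 6 suprabasal keratinocyte markers summed to at least 64410 cpm in each Control mouse. 1 mouse, the female KO UV mouse 54F, had summed dermal fibroblast markers of 1982 cpm, whereas the other 31 mice had at most 92.2 cpm.

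Promoter sequences are shown for Gata3 and Hopx, which had the largest fall and the largest rise after UV among the 10 genes, and for Grhl3, which had the largest difference in UV response between genotypes. RefSeq windows on GRCm38.p6 were matched by symbol for 6 of the 10 genes (9 windows). The 250 bases before each start site are written 5′ to 3′ on the strand of the gene, and capitals mark matches, on either strand, to the letters CACCC (bound by KLF proteins) or GCCNNNGGC (bound by AP-2 proteins). The windows lie at chr2:9878601-9878850 (minus strand) for Gata3, chr4:135573633-135573882 (minus strand) for Grhl3 and chr5:77115124-77115373 (minus strand) for Hopx, and none of their bases is an annotated exon of the gene itself. Hopx has another RefSeq window at chr5:77095268-77095517 (minus strand), which is not printed here. It includes 10 bases of annotated exon and held 2 matches to GCCNNNGGC and none to CACCC. The Gata3 window lies inside the annotated span of Gata3.
Gata3: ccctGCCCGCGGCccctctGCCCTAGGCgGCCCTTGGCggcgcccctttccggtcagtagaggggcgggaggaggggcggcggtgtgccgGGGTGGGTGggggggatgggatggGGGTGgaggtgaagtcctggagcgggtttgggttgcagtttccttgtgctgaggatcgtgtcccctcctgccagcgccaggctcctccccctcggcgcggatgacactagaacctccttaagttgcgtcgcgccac
Grhl3: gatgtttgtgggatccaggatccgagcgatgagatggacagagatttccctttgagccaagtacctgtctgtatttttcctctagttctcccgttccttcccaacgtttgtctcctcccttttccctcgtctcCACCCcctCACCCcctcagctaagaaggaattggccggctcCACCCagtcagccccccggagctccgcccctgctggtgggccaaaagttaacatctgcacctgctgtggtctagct
Hopx: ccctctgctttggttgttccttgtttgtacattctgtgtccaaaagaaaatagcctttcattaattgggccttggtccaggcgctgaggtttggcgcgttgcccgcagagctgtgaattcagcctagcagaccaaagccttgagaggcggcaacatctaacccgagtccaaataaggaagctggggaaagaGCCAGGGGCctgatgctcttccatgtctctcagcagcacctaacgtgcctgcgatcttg
The Gata3 window held 3 matches to GCCNNNGGC and 3 to CACCC, of which a pair overlapped. The Grhl3 window held 3 matches to CACCC and none to GCCNNNGGC, and the printed Hopx window 1 match to GCCNNNGGC and none to CACCC. Over 32851 promoter windows of the same length, 52% held at least 1 match to CACCC and 6.92% at least 3, and 13.7% held at least 1 match to GCCNNNGGC and 0.289% at least 3. None of the 9 windows held TGANTCA (AP-1, in 6.75% of all windows), AACNNGTT (grainyhead-like, 3.64%) or GATAA (GATA, 22.6%) in these letters. These matches describe the sequence and were not tested against the expression data.

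UV changed most of the 10 factors in both genotypes, in both directions. In WT mice 6 of the 10 were higher after UV, where 34.5% of all genes were called higher, and 2 were lower, where 36.5% of all genes were called lower. In KO mice 6 were higher (37.3% of all genes) and 2 were lower (33.5% of all genes). With 11039 of 15546 genes called in WT mice, passing the test is not particular to these factors. The median UV response of the 10 was 0.41 in WT and 0.20 in KO mice on the log2 scale, beside -0.01 and 0.09 for all genes tested. In WT mice, the 8 UV mice lay above all 8 Control mice for 6 factors, Tfap2a, Klf4, Zfp750, Ovol1, Grhl3 and Hopx (21.3% of all genes), and below them for Gata3 (22.1% of all genes). In KO mice the groups separated upward for Tfap2a, Ovol1 and Hopx (18.6% of all genes) and downward for Gata3 (16.5% of all genes).

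**Figure D1:**
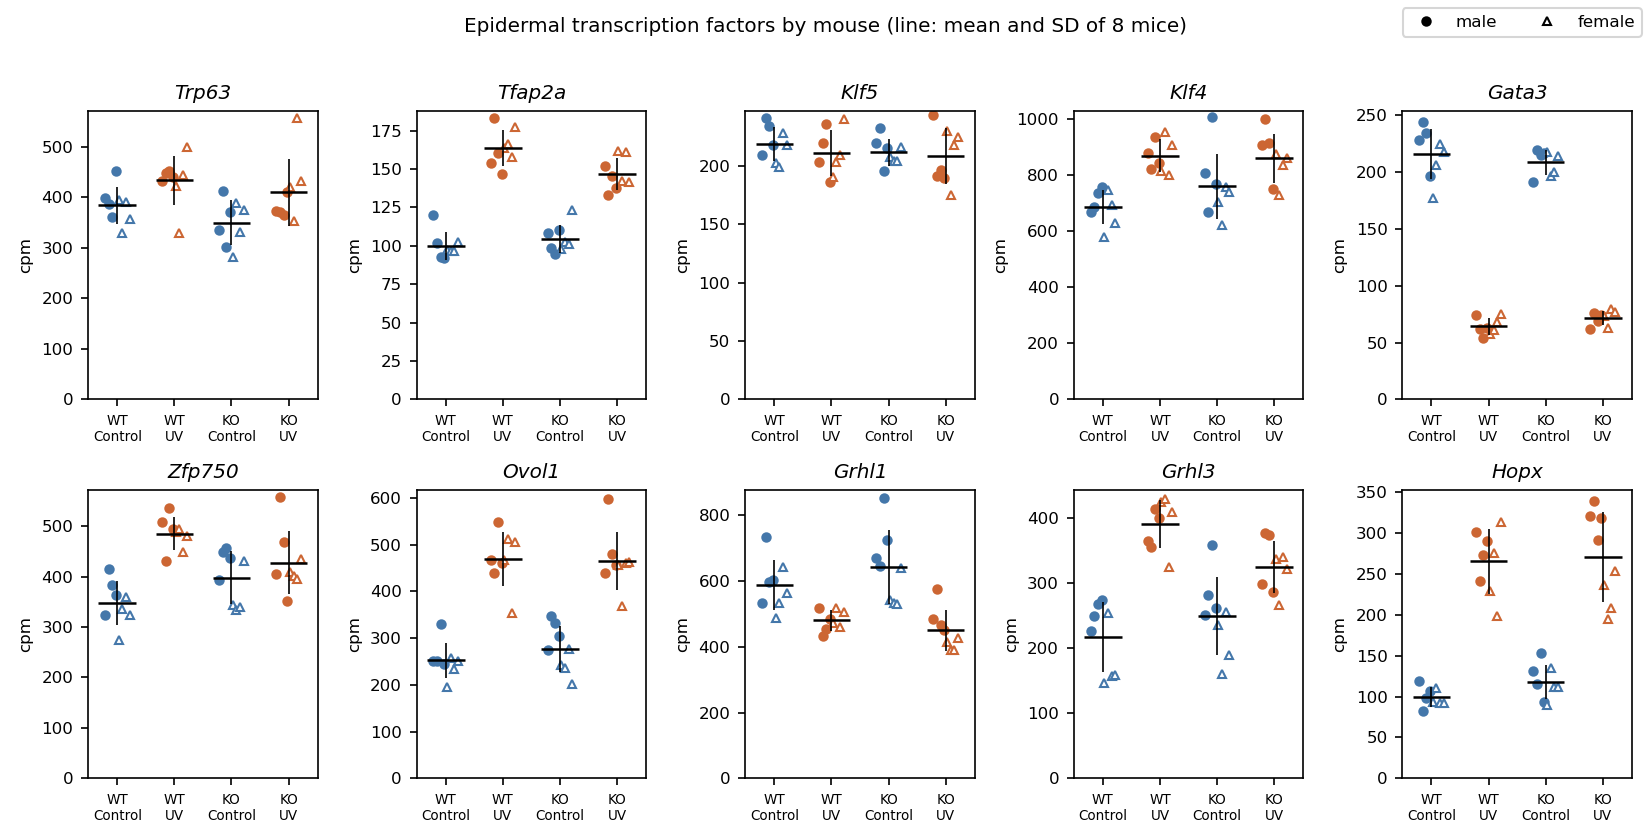
Level of each of the 10 transcription factors (vertical axis, cpm, starting at 0) in each mouse, by genotype and treatment, with circles for males and triangles for females and a line with a bar for the mean and SD of 8 mice. Gata3 fell from a mean of 216 to 64.4 cpm in WT mice while Hopx rose from 99.4 to 265 cpm, and the means of Klf5 lay between 208 and 219 cpm.

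Among the factors of the basal layer, Trp63 moved little. Trp63 (chr16:25683763-25892102, GRCm38, plus strand) ranged from 330 to 452 cpm in WT Control mice (median 389) and from 329 to 500 cpm in WT UV mice (median 443). In KO mice it ranged from 283 to 413 cpm without UV (median 353) and from 353 to 557 cpm after UV (median 392). The ranges overlapped in both genotypes. Its UV response was 0.18 ± 0.09 in WT mice (95% interval -0.0045 to 0.36, edgeR adjusted P = 0.0758), which was not called, and 0.23 ± 0.09 in KO mice (adjusted P = 0.0245), which was. These small values lay close to the threshold, and the call was gained in WT mice in 9 of the 32 fits that left out a mouse (0.25, edgeR adjusted P = 0.0100 without the female WT UV mouse 57F, and 0.22, adjusted P = 0.0200 without 54F) and under 3 other settings. The call was lost in KO mice without any 1 of 6 KO mice (log2 fold change 0.15, adjusted P = 0.140 without the male KO Control mouse 52M).

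Tfap2a, which encodes AP-2α, a factor of basal keratinocytes and early epidermal commitment, rose in both genotypes. It ranged from 91.8 to 120 cpm in WT Control mice (median 96.8) and from 147 to 183 cpm in WT UV mice (median 162). In KO mice the range was 94.7 to 123 cpm without UV (median 102) and 133 to 162 cpm after UV (median 144). Neither genotype showed any overlap between Control and UV mice. The rise was 0.71 ± 0.06 in WT (edgeR adjusted P = 3.5e-11) and 0.49 ± 0.06 in KO mice (adjusted P = 4.8e-08), that is 1.64-fold and 1.403-fold. Tfap2a spans chr13:40715302-40738376 on the minus strand, and 3 annotated antisense genes overlap it, each with counts under 1% of its own.

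Klf5, a KLF factor of proliferating basal cells, was the only one of the 10 not called by edgeR in either genotype after UV. Its level ran from 199 to 241 cpm in WT Control mice (median 218) and from 186 to 240 cpm in WT UV mice (median 206). The KO mice spanned 195 to 233 cpm without UV (median 211) and 175 to 243 cpm after UV (median 207). The 4 groups of 8 overlapped almost entirely. The UV response was -0.05 (95% interval -0.19 to 0.083) in WT and -0.02 (-0.16 to 0.11) in KO mice.

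Klf4, which drives late differentiation and barrier formation, behaved differently from its paralog. It ranged from 579 to 759 cpm in WT Control mice (median 690) and from 801 to 954 cpm in WT UV mice (median 861), without overlap. In KO mice it ranged from 623 to 1007 cpm without UV (median 749) and from 730 to 1001 cpm after UV (median 868), and these ranges overlapped. The rise was 0.34 ± 0.07 in WT (edgeR adjusted P = 0.000204) and 0.18 ± 0.07 in KO mice (adjusted P = 0.0324). The call in KO mice was lost without any 1 of 10 KO mice (adjusted P up to 0.136), whereas the call in WT mice was kept in all 32 fits that left out a mouse.

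Gata3, a regulator of barrier lipid synthesis in the suprabasal epidermis, fell more than any other of the 10. It ranged from 177 to 244 cpm in WT Control mice (median 221) and from 53.8 to 75.3 cpm in WT UV mice (median 62.2). In KO mice the range was 191 to 220 cpm without UV (median 215) and 62.3 to 79.5 cpm after UV (median 73.5). Every UV mouse had less than any Control mouse had. The fall was -1.75 ± 0.07 in WT mice, or 0.298 times the Control level (edgeR adjusted P = 2e-17), and -1.54 ± 0.07 in KO mice, or 0.343 times (adjusted P = 2.2e-16). Gata3 (chr2:9857078-9890034, minus strand) stood at the 9.94 percentile of all genes in its UV response in WT mice.

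Gata3 is also a factor of T lymphocytes, and T cell markers were lower after UV in the same mice. Of 10 such markers, 9 were called lower in WT and 7 in KO mice (6 without mouse 54F) by edgeR, with Cd3e at -1.99 and -1.19. Of all genes, 36.5% were called lower in WT and 33.5% in KO mice. The summed level of the 10 markers ranged from 130 to 254 cpm in WT Control mice, from 29.7 to 79.0 cpm in WT UV mice, from 117 to 209 cpm in KO Control mice and from 43.1 to 137 cpm in KO UV mice. None of these markers was at 0 in any mouse. Trac, the constant segment of the T cell receptor alpha chain, did not exceed 1.78 cpm, whereas Thy1 reached 122 cpm. Trdc, the constant segment of the delta chain, ranged from 3.9 to 31.3 cpm. The part of these cells in the fall of Gata3 was not tested. In whole epidermis, fewer cells of a type and less RNA per cell cannot be told apart.

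Zfp750, which encodes a p63 target that promotes terminal differentiation, rose in WT mice. It ranged from 273 to 416 cpm in WT Control mice (median 348) and from 432 to 536 cpm in WT UV mice (median 491), without overlap. In KO mice the values were 335 to 456 cpm without UV (median 412) and 352 to 557 cpm after UV (median 407), so the groups overlapped and their medians were close. The rise in WT mice was 0.49 ± 0.08 (edgeR adjusted P = 3.4e-06), and the difference in KO mice was 0.11 (95% interval -0.051 to 0.27, adjusted P = 0.217). Zfp750 (chr11:121510978-121519333, minus strand) overlaps Tbcd on the opposite strand, whose counts came to 7.22% of those of Zfp750. The library kit keeps the strand, but the strand setting used for counting is not given in the sources used here.

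Ovol1, a zinc finger repressor that promotes the exit of keratinocytes from proliferation, rose by similar amounts in both genotypes. It ranged from 196 to 331 cpm in WT Control mice (median 250) and from 354 to 549 cpm in WT UV mice (median 467). The KO range was 201 to 346 cpm without UV (median 275) and 369 to 596 cpm after UV (median 458). UV and Control mice did not overlap in either genotype. The rise was 0.90 ± 0.09, or 1.87-fold, in WT (edgeR adjusted P = 1.2e-09) and 0.76 ± 0.09, or 1.69-fold, in KO mice (adjusted P = 2.8e-08).

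The grainyhead-like paralogs moved in opposite directions. Grhl1, a regulator of desmosomal cadherins, ranged from 489 to 734 cpm in WT Control mice (median 580) and from 432 to 518 cpm in WT UV mice (median 478). In KO mice it ranged from 530 to 853 cpm without UV (median 643) and from 390 to 575 cpm after UV (median 440). The groups overlapped in both genotypes, with a fall of -0.29 ± 0.07 in WT (edgeR adjusted P = 0.000981) and of -0.51 ± 0.07 in KO mice (adjusted P = 5.4e-07). Grhl3, which is needed for barrier formation and epidermal wound closure, ranged from 147 to 274 cpm in WT Control mice (median 238) and from 326 to 429 cpm in WT UV mice (median 405). In KO mice it ranged from 161 to 359 cpm without UV (median 254) and from 266 to 377 cpm after UV (median 330). Separation was complete in WT mice but not in KO mice, where the Control mice 44M and 52M, at 283 and 359 cpm, lay above the lowest UV mouse, 54F. The rise of Grhl3 was 0.87 ± 0.11, or 1.83-fold, in WT (adjusted P = 7.9e-08) and 0.40 ± 0.11, or 1.32-fold, in KO mice (adjusted P = 0.00219). Grhl2, the remaining member of the family, was at 0.01 in WT and -0.06 in KO mice on the log2 scale and was called in neither.

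Hopx rose more than any other of the 10 in both genotypes. It ranged from 82.7 to 119 cpm in WT Control mice (median 96.0) and from 198 to 314 cpm in WT UV mice (median 274). The KO mice spanned 89.6 to 153 cpm without UV (median 114) and 195 to 340 cpm after UV (median 272). The groups were fully apart, with a rise of 1.42 ± 0.10, or 2.67-fold, in WT (edgeR adjusted P = 1.7e-12) and of 1.18 ± 0.10, or 2.27-fold, in KO mice (adjusted P = 6.6e-11). Hopx (chr5:77086988-77115121, minus strand) stood at the 90.3 percentile of all genes in its UV response in WT mice. The antisense gene Hopxos, which overlaps it, had counts of 0.52% of those of Hopx.

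The balance between factors was compared within each mouse as a log2 ratio of cpm. Klf5 with Klf4 and Grhl3 with Grhl1 are paralogs, which share a DNA sequence preference, whereas Grhl3 and Trp63 are not. Tests were two-sided exact permutation tests with labels exchanged within each sex (4900 arrangements, smallest possible P = 0.000408), adjusted over 6 ratios. Klf5 over Klf4 averaged -1.65 ± 0.14 (SD, n = 8) in WT Control and -2.05 ± 0.12 in WT UV mice, a shift of -0.40 (exact permutation test, adjusted P = 0.000816). In KO mice the shift was -0.21 (adjusted P = 0.0676), and it was -0.29 (adjusted P = 0.00098) without the male KO Control mouse 52M. Grhl3 over Grhl1 rose by 1.17 in WT, from -1.47 ± 0.37 to -0.30 ± 0.14, and by 0.92 in KO mice, from -1.38 ± 0.26 to -0.47 ± 0.19, without overlap between UV and Control mice in either genotype (exact permutation test, adjusted P = 0.000816 for both). Grhl3 over Trp63, a factor of differentiating cells over one of basal cells, rose by 0.71 in WT mice (exact permutation test, adjusted P = 0.00122), while its shift in KO mice was 0.18 (adjusted P = 0.296). Leaving out 1 mouse moved the shift in KO mice between 0.075 (without the female Control mouse 60F) and 0.29 (without 52M, exact permutation test, adjusted P = 0.0710). Each genotype was tested on its own, and the difference between genotypes was not tested for any of these ratios.

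**Figure D2:**
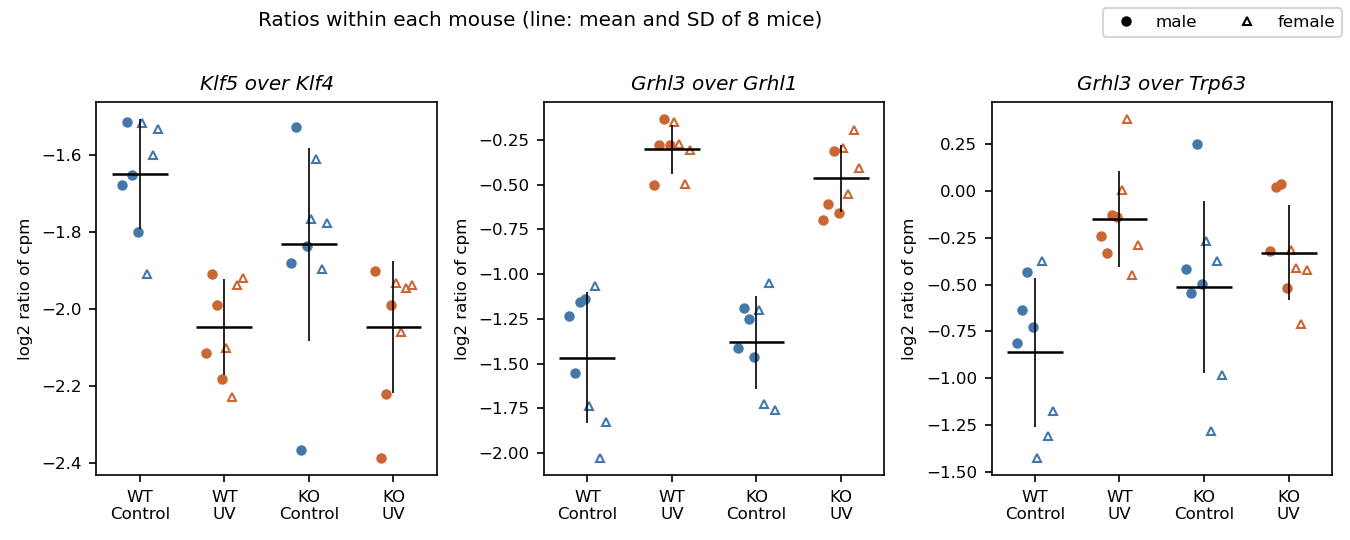
Log2 ratio of cpm between 2 factors within each mouse (vertical axis), by genotype and treatment, with circles for males, triangles for females and a line with a bar for the mean and SD of 8 mice. Grhl3 over Grhl1 separates UV from Control mice in both genotypes, and Grhl3 over Trp63 shifts by 0.71 in WT and 0.18 in KO mice. The difference between genotypes was not tested.

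The question whether the UV responses depend on PPARβ/δ was addressed by the genotype by UV interaction, the log2 response in KO mice less that in WT mice. edgeR called none of the 10 (0.765% of all genes were called), although 4 had an unadjusted P under 0.05, where 19.6% of all genes did. These were Zfp750 at -0.38 ± 0.11 (edgeR adjusted P = 0.0846), Grhl3 at -0.47 ± 0.16 (adjusted P = 0.115), Tfap2a at -0.22 ± 0.09 (adjusted P = 0.153) and Grhl1 at -0.22 ± 0.10 (adjusted P = 0.228). By these estimates the rise of the first 3 was smaller in KO mice and the fall of Grhl1 was larger. DESeq2 called Zfp750 (adjusted P = 0.0160), Grhl3 (0.0376) and Tfap2a (0.0428), and it called 841 genes in all where edgeR called 119. In edgeR, Grhl3 was also called without the female WT Control mouse 63F (-0.58, adjusted P = 0.0414) and Zfp750 without the male KO UV mouse 59M (-0.46, adjusted P = 0.0180).

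The remaining interactions were smaller than their error allowed to be told from 0. Gata3 was at 0.20 (95% interval -0.0011 to 0.41), Hopx at -0.24 (-0.53 to 0.060), Klf4 at -0.16 (-0.38 to 0.057) and Ovol1 at -0.14 (-0.40 to 0.12). Trp63 at 0.05 (-0.21 to 0.31) and Klf5 at 0.03 (-0.16 to 0.22) were closest to 0. These intervals leave room for differences between genotypes of at least 0.22 on the log2 scale for each of the 6 genes.

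**Figure D3:**
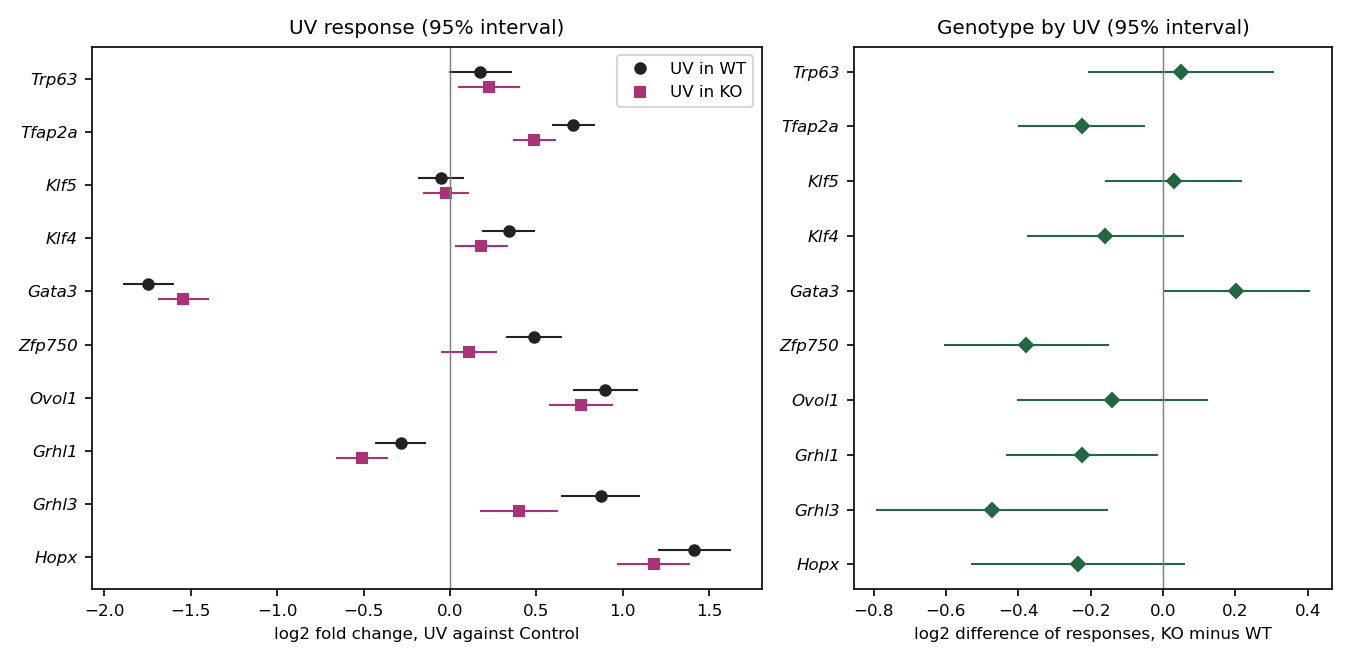
Left, log2 fold change of UV against Control for each factor in WT (black circles) and KO mice (purple squares), with 95% intervals from the edgeR fit. Right, the difference between both responses (KO minus WT) with its 95% interval, which lies below 0 for Tfap2a, Zfp750, Grhl1 and Grhl3. The intervals are not adjusted for multiple testing, and edgeR called this difference for none of the factors.

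Neither without nor after UV was any of the 10 called between genotypes (0.206% and 3.31% of all genes called). Without UV, DESeq2 called none either, and 2 factors had an unadjusted P under 0.05 in edgeR (8.52% of all genes did), both with higher values in KO mice. Hopx was at 0.24 ± 0.10 (edgeR adjusted P = 0.487) and Zfp750 at 0.19 ± 0.08 (adjusted P = 0.457). After UV there were 4 (20.1% of all genes), namely Grhl3 at -0.27 ± 0.11 (adjusted P = 0.172), Zfp750 at -0.18 ± 0.08 (adjusted P = 0.183), Tfap2a at -0.16 ± 0.06 (adjusted P = 0.136) and Gata3 at 0.16 ± 0.07 (adjusted P = 0.214). DESeq2 called Tfap2a after UV (-0.18, adjusted P = 0.0446). Without mouse 54F, edgeR called 209 genes between genotypes after UV in place of 514, and again none of the 10.

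Sex was compared over both genotypes. In Control mice, edgeR called 3 of the 10 lower in females, where 4.64% of all genes were lower. Grhl3 ranged from 227 to 274 cpm in WT males (median 259) and from 147 to 254 cpm in WT females (median 158), and from 251 to 359 cpm in KO males (median 273) and 161 to 257 cpm in KO females (median 212). Only the female WT mouse 63F, at 254 cpm, lay within the male WT range. The female to male difference of Grhl3 was -0.48 ± 0.11 (edgeR adjusted P = 0.0117), that of Ovol1 was -0.30 ± 0.09 (adjusted P = 0.0447) and that of Grhl1 was -0.26 ± 0.07 (adjusted P = 0.0326). All 3 calls were lost without the male KO Control mouse 52M, when Grhl3 stood at -0.39 (adjusted P = 0.0585), and the calls of Ovol1 and Grhl1 were lost in 19 and 12 of the 32 fits that left out a mouse.

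After UV, no factor was called between the sexes by edgeR (3.03% of all genes were called), and 1 had an unadjusted P under 0.05 (20.4% of all genes did). This was Hopx, which ranged from 291 to 340 cpm in KO males and from 195 to 254 cpm in KO females. In WT mice the ranges were 241 to 301 cpm in males and 198 to 314 cpm in females. Hopx differed by -0.31 ± 0.10 over both genotypes (edgeR adjusted P = 0.0770). DESeq2 called it (-0.33, adjusted P = 0.0292). For the sex by UV interaction edgeR called none of the 10 and 0% of all genes, with 1091 genes (7.02%), Grhl3 among them, at an unadjusted P under 0.05. DESeq2 called 22 genes, none of the 10. Grhl3 rose by 1.15 in WT females and by 0.60 in WT males, and by 0.59 in KO females, while KO males stood at 0.21 (edgeR adjusted P = 0.248). The interaction was 0.47 ± 0.16 (edgeR adjusted P = 0.561).

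Levels were compared between the genes only per kb of annotated exon, taking the union of the exons of all GENCODE transcripts, which assumes that each transcript is used. In WT Control mice Klf4 led at 226 ± 20.02 cpm per kb (SD, n = 8), followed by Zfp750 (107), Grhl1 (106), Grhl3 (77.8), Ovol1 (72.2), Hopx (65.6), Gata3 (54.3), Trp63 (45.8), Klf5 (42.0) and Tfap2a (20.4 ± 1.81). Klf4 and Tfap2a were apart from their neighbours in this order, and every other pair of neighbours overlapped. In WT UV mice the order was Klf4 (285), Hopx (175), Zfp750 (150.2), Grhl3 (140.2), Ovol1 (135), Grhl1 (86.8), Trp63 (51.7), Klf5 (40.5), Tfap2a (33.4) and Gata3 (16.2). Hopx moved from rank 6 to rank 2 and Gata3 from rank 7 to rank 10. Gaps without overlap then lay below Klf4, below Ovol1, below Grhl1 and above Gata3. In KO mice Hopx moved likewise from rank 6 to rank 2 and Gata3 from rank 7 to rank 10, with Ovol1 (133), Zfp750 (132) and Grhl3 (117) after UV overlapping one another.

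**Figure D4:**
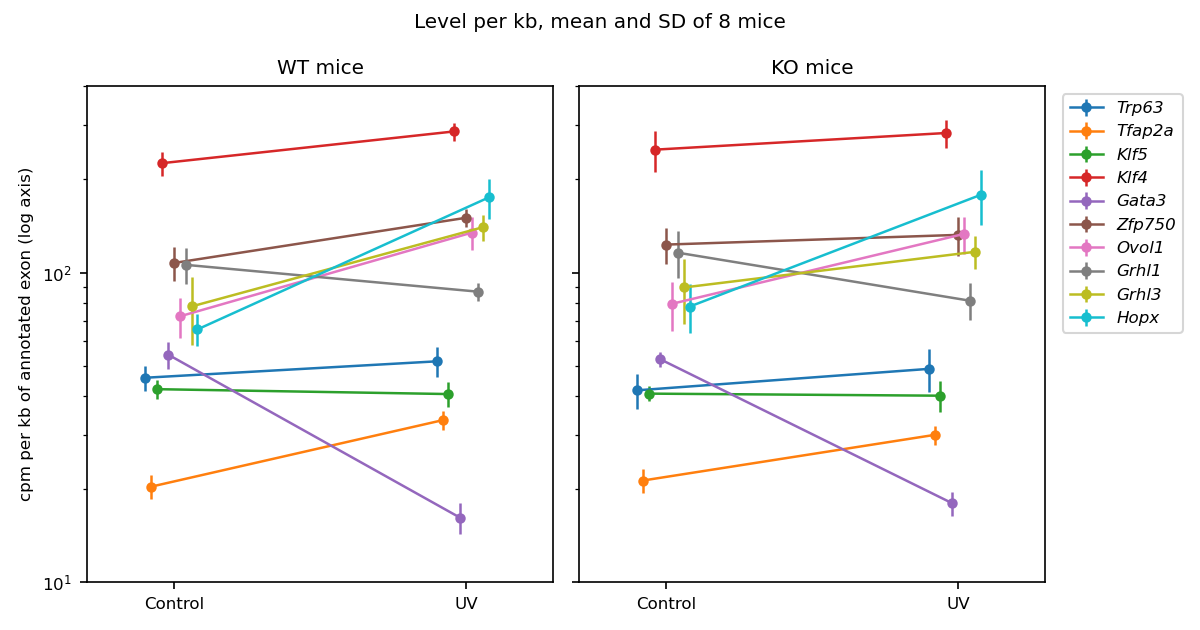
Level of each factor per kb of annotated exon (vertical log axis, cpm per kb) in Control and UV mice of each genotype, as the mean with SD of 8 mice. Gata3 crosses from rank 7 to rank 10 and Hopx from rank 6 to rank 2 in both panels, while Klf4 leads throughout.

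Variation of the factors from mouse to mouse was described by the deviations of log2 cpm from the mean of each group of 4. These covered 32 mice and were not tested. All genes of a mouse come from the same library, so differences between mice in depth or cell make-up can enter every r. The highest pairs had Pearson r of 0.76 for Grhl1 and Zfp750, 0.72 for Klf4 and Grhl3, 0.66 for Grhl3 and Ovol1, 0.58 for Klf4 and Grhl1 and 0.55 for Klf4 and Zfp750. Other pairs of differentiation factors ran from moderate to low. They included 0.47 for Klf4 and Ovol1, 0.42 for Ovol1 and Zfp750, 0.42 for Klf4 and Hopx and 0.41 for Grhl3 and Zfp750. Lower values were 0.23 for Grhl1 and Grhl3, 0.21 for Grhl1 and Ovol1, 0.11 for Klf4 and Gata3 and 0.043 for Zfp750 and Hopx. Trp63 went against Klf4 (-0.34) and Grhl3 (-0.31). Gata3 and Hopx, which moved furthest apart under UV, were near 0 within groups (0.048). Grhl1 and Gata3, the pair that fell, stood at 0.44.

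**Figure D5:**
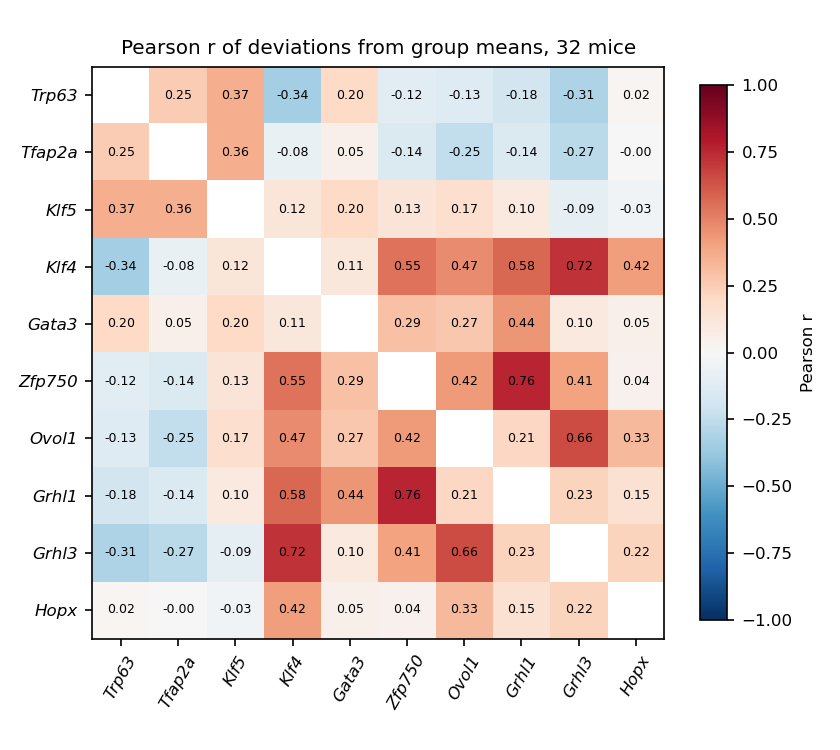
Pearson r between each pair of factors (rows and columns, colour scale from -1 to 1) over 32 mice after subtraction of the group means of log2 cpm. Grhl1 with Zfp750 is the highest pair at 0.76, and Trp63 is negative with Klf4 and Grhl3.

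For each factor, the 3 genes most like it in these deviations were taken from 10114 genes with a mean log2 cpm of at least 2. The closest relation was that of Zfp750 with Myo18a (r = 0.92), Kif13b (0.88) and Fnbp1 (0.87), followed by Grhl1 with Pdcd6ip (0.87), Atp6v1c2 (0.87) and Atp6v0a1 (0.86). Klf4 came closest to Myh14 (0.79), Zbtb22 (0.77) and Iffo2 (0.76), and Trp63 to Slc35d1 (0.77), Rras2 (0.74) and Abracl (0.70). Grhl3 had Lss (0.73), Klf4 (0.72) and Pqlc2 (0.72), and Ovol1 had Pi4k2a (0.70), AI661453 (0.67) and Grhl3 (0.66), so that only these factors had another of the 10 among their nearest 3. Tfap2a was nearest to Nfkbia (0.75), Rps12 (0.71) and Ubtf (0.66), Hopx to Plk3 (0.73), Dusp14 (0.72) and Rhof (0.70), Klf5 to 6720427I07Rik (0.72), Rcor3 (0.70) and Ikzf2 (0.68), and Gata3 to Mmadhc (0.72), Adgrf4 (0.68) and Adora2b (0.67).

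The programme around these factors was described with fixed lists. Of 34 other epidermal transcription factors, edgeR called 12 higher and 16 lower in WT mice, where 34.5% and 36.5% of all genes were. In KO mice it called 11 and 17, where 37.3% and 33.5% of all genes were, with a median of -0.24 in both genotypes. Elf5, an epithelial ETS factor, rose by 3.52 in WT and by 3.47 in KO mice. Msx1, a homeobox factor, fell by 3.49 in WT and by 2.27 in KO mice. Lhx2, a factor of hair follicle stem cells, fell by 3.13 ± 0.64 in WT mice. In KO mice it stood at -0.72 ± 0.54 (edgeR adjusted P = 0.233). For the genotype by UV interaction, edgeR called 0 of the 34 factors higher and 0 lower, where 0.765% of all genes were called in either direction.

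Targets of p63 were described beside Trp63. Of 20 such genes 9 were called higher and 8 lower in WT mice (median 0.08), where 34.5% and 36.5% of all genes were. In KO mice 11 were higher and 5 lower (median 0.29), where 37.3% and 33.5% of all genes were, beside the small change of Trp63. The 3 furthest moved in WT mice were Fras1, a basement membrane protein (-3.54), Fgfr2, a growth factor receptor (-2.78), and Itga3, the integrin α3 subunit (2.01), and in KO mice these stood at -2.62, -2.43 and 2.55. Of 25 late differentiation genes, 10 were called higher and 11 lower in WT (median -0.01) and 8 higher and 14 lower in KO mice (median -0.39). Lce3a, a cornified envelope gene, rose by 7.75 in WT and by 6.28 in KO mice, and Sprr1a, another envelope precursor, by 4.45 and 4.13, whereas Flg2, a filaggrin relative of the granular layer, fell by 4.64 in WT and fell by 4.88 in KO mice.

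Markers of the keratinocyte layers moved in the same mice. The summed level of 6 suprabasal keratin and cornification markers fell from a range of 69560 to 83240 cpm to 8804 to 21060 cpm in WT and from 64410 to 104500 cpm to 4829 to 24990 cpm in KO mice, and all 6 were called lower by edgeR in both genotypes. With RLE factors Ivl, at -0.56 in WT mice, was no longer called there (edgeR adjusted P = 0.0591). The sum of 6 basal markers ranged from 7117 to 16280 cpm in WT Control and from 17030 to 29500 cpm in WT UV mice, with 3 of the 6 called higher and 2 lower, and from 5321 to 11850 cpm to 16590 to 28940 cpm in KO mice, with 4 higher and 1 lower. Krt14 weighed most in this sum, reaching 22800 cpm where Krt5 reached 7140 cpm, and rose by 1.70 in WT and 2.00 in KO mice. The markers called lower were Krt15, at -6.08 in WT and -5.18 in KO mice, and Krt5, at -0.50 in WT mice. Of all genes, 34.5% were called higher and 36.5% lower in WT mice, and 37.3% and 33.5% in KO mice. None of the markers on either list was at 0. The part of these shifts in the responses of the 10 factors was not tested.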

How the data were processed

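Epidermal RNA of 32 mice was sequenced as polyA-selected, stranded libraries (RQN 6.4 to 8.4 in the sample records). The study's methods give a higher range of RQN. Per the labels and the study's methods, the authors trimmed reads with cutadapt 1.8, aligned them with STAR 2.5.3a and counted reads per gene with HTSeq 0.9.1, and the deposited values are raw counts per Ensembl gene without normalization. The processing notes name build GRCm38 (the study's methods name a human build), so gene positions are from GENCODE M21 on GRCm38, which paired 55141 of 55401 identifiers with a symbol. HTSeq's totals of unassigned reads were left out.

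The 15546 genes that reached 1 cpm in any mouse were fitted in edgeR 4.0.16 (R 4.3.3) with TMM factors (0.864 to 1.09), 8 group means and the quasi-likelihood test, and P values were adjusted by Benjamini-Hochberg over all genes of a contrast. Contrasts average the sexes, or the genotypes for sex. Log2 cpm used a prior count of 1. RLE factors, DESeq2 1.42.0, limma-trend 3.58.1, 2 other filters, fits of one genotype or exposure alone and leaving out each mouse were alternatives, and those for the gene lists (RLE, without mouse 54F) were chosen after seeing the data. Replicate libraries of a group differed beyond sampling noise in all 48 pairs (chi-square per degree of freedom 19.5 to 134). Each library is 1 mouse, and mouse labels are not shared between groups.

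The 10 genes and the gene lists were chosen with earlier results of these data known. A further list, of family relatives, is not reported here. Named were the 10 genes, for each of 3 lists the 3 called genes with the largest change in WT mice, for each factor its 3 nearest genes, and Ppard and Cdkn1a; other genes were named after their values were seen.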

Additional observations from a re-analysis of the deposited data

Results flagged for a closer look

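Among 80 sets of 4 mice (10 factors in 8 groups), 11 held 1 mouse that lay far from the other 3, with a gap to the next mouse above Dixon's critical share of the range of log2 cpm, where chance gives about 1 in 20 such sets, or 4. In female WT Control mice, 63F was high for Grhl3 (254 cpm, others 147 to 159) and Hopx (110.1 cpm, others 92.0 to 93.3), and 73F for Tfap2a (102.5 cpm, others 96.6 to 96.96). The female KO Control mouse 69F was high for Grhl1 (641 cpm, others 530.1 to 541) and Zfp750 (431 cpm, others 335 to 343). The female WT UV mouse 59F was low for Grhl3 (326 cpm, others 410 to 429), and the female KO UV mouse 54F, which also had the high fibroblast markers, was low for Ovol1 (369 cpm, others 456 to 462). In males, the WT Control mouse 56M was high for Ovol1 (331 cpm, others 245 to 251), the KO Control mouse 34M low for Gata3 (191 cpm, others 215 to 220), the KO UV mouse 58M high for Klf5 (243 cpm, others 189 to 197) and the KO UV mouse 72M high for Trp63 (411 cpm, others 365 to 373). Among the calls that changed without one of these mice, the genotype by UV difference of Grhl3 was called by edgeR without 63F (adjusted P = 0.0414), and the sex difference of Ovol1 in Control mice was not called without 56M (adjusted P = 0.122).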

How the results depend on the processing

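Of 80 results for single factors, 67 kept their call in every alternative run, and none that was called reversed. Leaving out each mouse gave 8 to 9 factors called for UV in WT, 6 to 8 for UV in KO, 0 to 1 for KO against WT after UV, for genotype by UV and for female against male after UV, and 0 to 4 for female against male without UV. DESeq2 called 3 factors for genotype by UV, 1 for KO against WT after UV and 1 for female against male after UV, where edgeR called 0. For female against male without UV the count of 3 became 1 with filterByExpr, with no filter and with Control mice alone. It became 2 with RLE and 4 with DESeq2. Klf5 over Klf4 in KO mice shifted by -0.17 to -0.29 without 1 mouse and passed the test only without 52M (-0.29). UV in KO gave 6 factors under both other filters and in KO mice alone, since Trp63 and Klf4 were then not called, and Trp63 in WT mice was called under RLE (adjusted P = 0.0364), DESeq2 (0.0280) and in WT mice alone (0.0462). Of 216 calls of list genes under UV, 0 took the other sign under RLE. Under RLE and without mouse 54F, no count of the 3 lists moved by more than 1. Between edgeR and DESeq2, the genes called were 119 and 841 for genotype by UV, 514 and 1116 for KO against WT after UV, 32 and 78 for KO against WT without UV, 1066 and 1676 for female against male without UV, 471 and 1196 for female against male after UV and 0 and 22 for sex by UV. The causes were not tested. Each of the 10 factors had at least 53.8 cpm in every mouse.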

Other observations

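Lists of markers of other cells in the preparation were described beside the factors, by edgeR calls in WT and in KO mice. Of all genes, 34.5% were called higher and 36.5% lower in WT mice, and 37.3% and 33.5% in KO mice. Langerhans cell markers were lower for 6 of 6 in WT and 5 of 6 in KO mice, with summed levels of 453 to 978 cpm in WT Control, 219 to 333 cpm in WT UV, 283 to 909 cpm in KO Control and 229 to 793 cpm in KO UV mice. Myeloid and neutrophil markers were higher for 3 of 6 tested in WT and for 4 of 6 in KO mice, with 1 lower in KO mice, and their sum averaged 55.9 cpm in WT Control and 136 cpm in WT UV mice, and 70.7 cpm in KO Control and 211 ± 162 cpm (SD, n = 8; median 143) in KO UV mice, where mouse 54F had 594 cpm. Sebaceous gland markers were higher for 2 of 6 and lower for 1 in WT mice and higher for 4 of 6 in KO mice. Gata3 and Lhx2 are also factors of the hair follicle. Its markers were higher for 2 of 8 in WT mice (Cd34 and Tchh) and 1 of 8 in KO mice (Cd34). None of the follicle keratins on the list was called in either genotype. The marker sums were 5.10 to 267 cpm in WT Control and 20.1 to 804 cpm in WT UV mice. In KO mice they were 13.0 to 239 cpm without UV and 22.6 to 671 cpm after UV. Endothelial markers were higher for 3 of 4 in WT and 2 of 4 in KO mice, at sums of at most 21.4 cpm. Melanocyte markers (1 of 4 higher in each genotype) and adipocyte markers had sums of at most 12.5 and 10.5 cpm. Dermal fibroblast markers were lower for 3 of 6 in WT mice and, without mouse 54F, for 5 of 6 in WT and 3 of 6 in KO mice. Their median UV response in KO mice was 1.54 with that mouse and -1.38 without it. Skeletal muscle markers had sums from 3.71 to 2567 cpm over the 32 mice, with wide ranges in each of the 4 groups of 8.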
